A study of Mus musculus with 9 samples.

Results

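Expression of 10 genes of the circadian clock, Per1, Per2, Per3, Cry1, Cry2, Arntl, Clock, Nr1d1, Nr1d2, and Dbp, was examined by bulk RNA-Seq in the retina of mice with oxygen-induced retinopathy (OIR). The genes were taken by symbol from the 54532 genes in the count table, and all 10 were among the 17540 genes that passed the low-count filter in every comparison. The libraries came from 9 wild-type C57BL/6 mice, 3 per group, and all were collected at P17 (postnatal day 17). Control mice were kept in room air, and their labels also list DMSO. OIR mice, which had been exposed to hyperoxia and then returned to room air, received DMSO, the vehicle, by intraocular injection at P12. Treated OIR mice received 32-134D, an inhibitor of the hypoxia-inducible factors (HIFs), at P12, at a dose given as 70 ng in one label and 70 ng/μL in another. Mice are named here by their label numbers. The control mice were numbered 1, 6, and 7, the OIR mice 3, 5, and 6, and the treated OIR mice 2, 5, and 10, and values are given in this order. The study describes the libraries as independent isolations from different mice, and whether mice shared a litter is not given in the sources used here. The time of day of collection is not in the labels, and a difference in collection time between groups cannot be told apart from a difference due to OIR.

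The mammalian clock is a transcriptional feedback loop. ARNTL (BMAL1) and CLOCK form a heterodimer of basic helix-loop-helix (bHLH) PAS proteins, the same protein family as HIF-1α, HIF-2α, and their partner ARNT, and activate genes through E-box elements. PER and CRY proteins accumulate and repress that heterodimer, NR1D1 and NR1D2 (REV-ERBα and REV-ERBβ) repress Arntl through ROR elements, and DBP, a PAR-bZIP factor, carries the rhythm to output genes through D-box elements. In most tissues Arntl mRNA therefore peaks at about the opposite time of day to Dbp and Nr1d1 mRNA. The retina holds its own clock, which paces dopamine and melatonin release.

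The binding elements of this loop lie close to the start of several of the genes, and they are shown here because they are the letters through which the factors of the loop are known to act. RefSeq promoter sequences (GRCm38.p6, 250 bases before to 50 bases after each start) were found for 9 of the 10 genes, in 13 windows. The Per1 sequence shown lies before a RefSeq start inside the gene (chr11:69095217-69109960), not before its first base. The Nr1d1 sequence lies before a RefSeq start outside the gene as placed in the count table (chr11:98767932-98775333). The end of that window was not found in a GENCODE M21 transcript of Nr1d1. Capitals mark the E-box (CACGTG), its variant CACGTT (read as AACGTG on the other strand), the ROR element (TNGGTCA), or the D-box (TTANNTAA), and each sequence reads 5′ to 3′ on the gene's strand.
Arntl, chr7:113207235-113207314 (+), 230 to 151 bases before the start, ROR elements: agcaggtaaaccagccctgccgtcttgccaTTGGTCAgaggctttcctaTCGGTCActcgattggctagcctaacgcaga
Per1, chr11:69098749-69098828 (+), 200 to 121 bases before the start, E-box: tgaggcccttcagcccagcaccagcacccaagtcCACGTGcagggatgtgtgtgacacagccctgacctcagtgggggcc
Cry1, chr10:85185085-85185164 (-), 110 to 31 bases before the start, E-box variant and E-box: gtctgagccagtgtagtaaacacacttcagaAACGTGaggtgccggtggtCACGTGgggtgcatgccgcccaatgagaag
Nr1d1, chr11:98775378-98775457 (-), 80 to 1 bases before the start, E-box variant: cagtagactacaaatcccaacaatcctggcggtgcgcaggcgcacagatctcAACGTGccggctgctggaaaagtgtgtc
Per3, chr4:151044801-151044880 (-), 215 to 136 bases before the start, D-boxes: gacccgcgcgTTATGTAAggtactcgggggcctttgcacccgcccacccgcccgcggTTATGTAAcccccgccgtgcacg
Ciart, chr3:95882259-95882358 (-), 130 to 31 bases before the start, 3 E-boxes: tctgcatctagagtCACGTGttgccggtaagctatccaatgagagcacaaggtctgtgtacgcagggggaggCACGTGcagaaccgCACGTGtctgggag

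Over both strands of 32851 mouse promoter windows, the E-box was found in 7.15%, CACGTT in 4.68%, the D-box in 6% and the ROR element in 11%. Among the clock genes, the E-box was found for 2 (Per1 and Cry1), CACGTT for 3 (Cry1, Cry2, and Nr1d1), the D-box for 1 (Per3), and the ROR element for 3 (Arntl, Cry2, and Per3). The HIF core letters ACGTG were found for 5 of the 9 genes and in 19.6% of all windows, and these letters also lie inside the E-box and its variant. GCGTG, another HIF core, was found for 8 of the 9 genes and in 32.4% of all windows. The windows of Dbp, Nr1d2, and Clock held none of the E-box, CACGTT, D-box, or ROR letters. Clock genes were counted by gene and the shares by window, which are unlike measures. Per1, Arntl, and Clock had 2, 2, and 3 windows, and so more places for a match. Such matches describe these windows alone.

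Total counts per library ranged from 16028731 to 27213184. Each clock gene had between 194 (Per2 in treated OIR mouse 2) and 5324 (Dbp in control mouse 1) counts in a library, so that the spread among mice set the precision. In treated OIR mouse 2, 15.8% of counts were from lens crystallin genes, against at most 0.186% in any other mouse, and values without this mouse are given for the genes whose difference between treated OIR and control had an unadjusted p below 0.05 and no longer did without it, and for some others. Rod marker genes summed to between 32945 and 59472 CPM (counts scaled to library size) in all 9 mice, with the lowest sum in treated OIR mouse 2. Sex, read from sex-linked genes, was 1 female and 2 males in control, 1 female and 2 males in OIR, and 2 females and 1 male in treated OIR mice.

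Across groups, 3 of the 10 genes separated control from OIR retinas. Dbp and Nr1d1 were lower, and Arntl was higher, in all 6 OIR mice than in any control mouse, whereas Clock, Per1, Per3, Cry1, and Nr1d2 overlapped in every comparison of groups. None of the 10 passed a Benjamini-Hochberg adjusted p of 0.05 in OIR against control by the edgeR quasi-likelihood fit of the 9 mice together, in which 0.941% of the 17540 genes tested passed. At an unadjusted p below 0.05, 3 of 10 passed against 23.8% of all genes. Groups did not overlap for 3 of 10 members against 33% of all genes in OIR against control, and for the same 3 against 17.1% of all genes when all 6 OIR mice were set against control. The share of clock genes that differed was thus near the share of all genes.

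**Figure D1:**
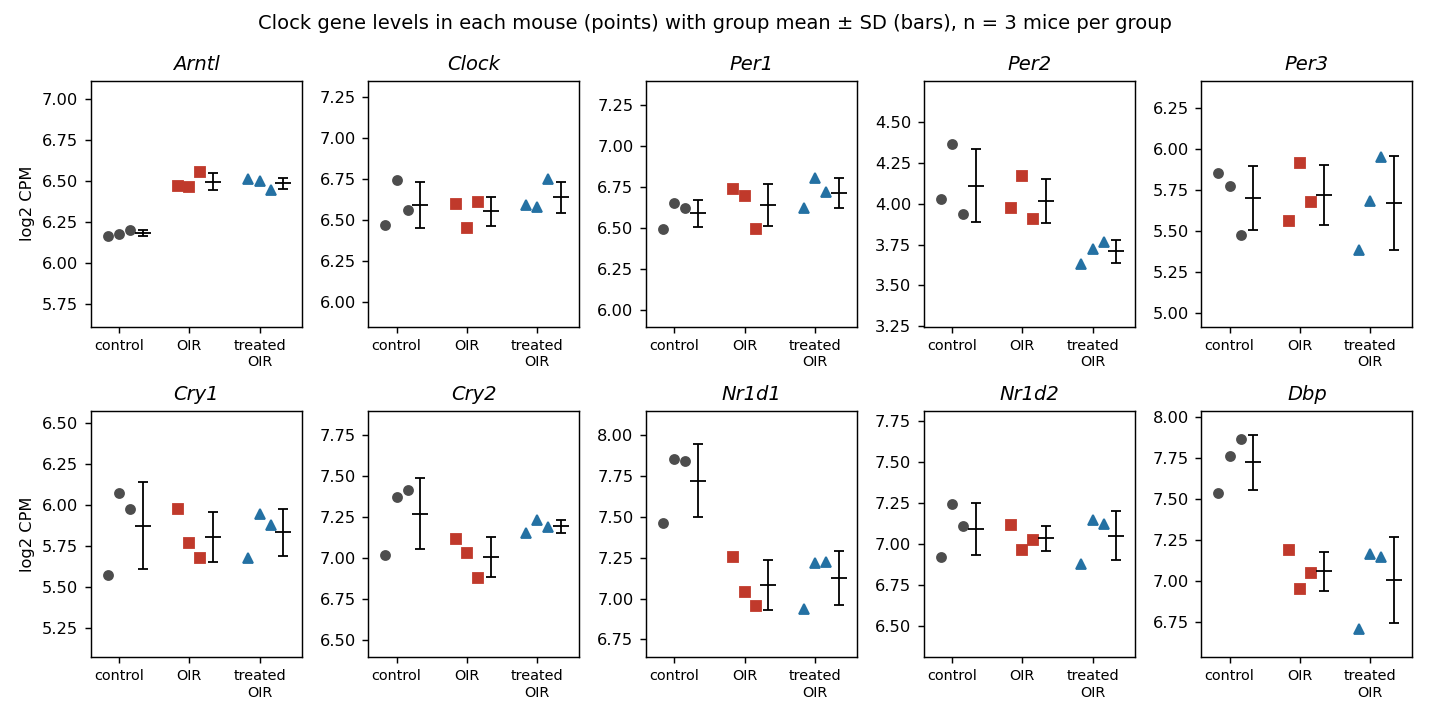
Level of each clock gene (log2 CPM, y axis) in each mouse of the control (gray circles), OIR (red squares), and treated OIR (blue triangles) groups, with the mean ± SD of 3 mice as bars beside the points. Every panel spans the same 1.5 log2 units. Arntl sits between 6.17 and 6.20 in control mice and between 6.45 and 6.55 in the 6 OIR mice, and Dbp and Nr1d1 sit lower in all 6 OIR mice than in any control mouse.

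Among the activators, Arntl (ENSMUSG00000055116; GRCm38 chromosome 7, 113207465 to 113314126) encodes the subunit that gives the loop its rhythm in most tissues. Its level was 6.17, 6.18, and 6.20 log2 CPM in control mice 1, 6, and 7. It was 6.47, 6.46, and 6.55 in OIR mice 3, 5, and 6. It was 6.51, 6.50, and 6.45 in treated OIR mice 2, 5, and 10. The control mice lay together below all OIR mice, and the OIR and treated OIR groups overlapped. The difference from control was 0.31 log2 (SE 0.0725, 95% CI 0.15 to 0.48; edgeR unadjusted p = 0.00185, adjusted p = 0.0644) in OIR mice. In treated OIR mice it was 0.30 (SE 0.0726, 95% CI 0.14 to 0.47; edgeR unadjusted p = 0.00224, adjusted p = 0.12). This corresponds to 124% of the control level in each group, and the difference was of like size within the female and male mice (0.30 and 0.32 in OIR, 0.34 and 0.26 in treated OIR). The values within a sex rest on 1 or 2 mice per group.

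Clock, the partner of ARNTL, was between 6.47 and 6.74 log2 CPM in control, 6.45 and 6.61 in OIR, and 6.58 and 6.75 in treated OIR mice. These ranges overlapped, and the difference from control was -0.04 (95% CI -0.27 to 0.19) in OIR and 0.05 (95% CI -0.18 to 0.27) in treated OIR mice.

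Of the repressors, the 3 Per genes encode the proteins whose accumulation closes the loop, and Per1 and Per2 also respond acutely to light and to signaling through cAMP and glucocorticoids. Per1 was 6.50, 6.65, and 6.62 log2 CPM in control mice, 6.74, 6.69, and 6.49 in OIR mice, and 6.62, 6.80, and 6.72 in treated OIR mice. Per3 was 5.85, 5.77, and 5.48 in control mice, 5.56, 5.92, and 5.67 in OIR mice, and 5.38, 5.68, and 5.95 in treated OIR mice. For both genes, the 3 groups covered nearly the same range. The difference between OIR and control was 0.05 (95% CI -0.17 to 0.27) for Per1 and 0.02 (95% CI -0.36 to 0.39) for Per3.

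Per2 (ENSMUSG00000055866; GRCm38 chromosome 1, 91415982 to 91459324) was the member with the lowest counts. Its level was 4.03, 4.37, and 3.94 log2 CPM in control mice, 3.97, 4.17, and 3.91 in OIR mice, and 3.63, 3.73, and 3.77 in treated OIR mice. Each treated OIR mouse lay below each mouse of the other groups, while control and OIR mice overlapped. Treated OIR mice differed from control by -0.42 (SE 0.155, 95% CI -0.77 to -0.07; edgeR unadjusted p = 0.0249, adjusted p = 0.22). Without treated OIR mouse 2 this difference was -0.37 (edgeR unadjusted p = 0.0597). They differed from vehicle-injected OIR mice by -0.31 (95% CI -0.66 to 0.04; edgeR unadjusted p = 0.0737).

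The cryptochromes bind PER proteins and are the stronger repressors of the ARNTL and CLOCK heterodimer. Cry1 was between 5.57 and 6.07 log2 CPM in control, 5.67 and 5.97 in OIR, and 5.67 and 5.95 in treated OIR mice. Cry2 was 7.02, 7.37, and 7.42 in control mice, 7.12, 7.03, and 6.88 in OIR mice, and 7.15, 7.23, and 7.19 in treated OIR mice. Control mouse 1 was among the OIR mice for Cry2, so these groups overlapped. Cry2 differed from control by -0.27 (95% CI -0.54 to 0.0010) in OIR mice (edgeR unadjusted p = 0.0507). Without treated OIR mouse 2 this difference was -0.29 (edgeR unadjusted p = 0.0343). Each treated OIR mouse was above each OIR mouse for Cry2, with a difference of 0.18 (95% CI -0.09 to 0.45).

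The nuclear receptors Nr1d1 and Nr1d2 encode the heme-binding repressors of Arntl. Nr1d1 (ENSMUSG00000020889; GRCm38 chromosome 11, 98767932 to 98775333) was 7.46, 7.86, and 7.84 log2 CPM in control mice. It was 7.25, 7.04, and 6.95 in OIR mice and 6.93, 7.22, and 7.22 in treated OIR mice. All 6 OIR mice were below the lowest control mouse, and the OIR and treated OIR groups overlapped. The difference from control was -0.64 (SE 0.142, 95% CI -0.96 to -0.32; edgeR unadjusted p = 0.00138, adjusted p = 0.0612) in OIR mice, or 64.0% of the control level. In treated OIR mice it was -0.60 (SE 0.142, 95% CI -0.92 to -0.28; edgeR unadjusted p = 0.00212, adjusted p = 0.118), or 65.9%, and without treated OIR mouse 2 it was -0.50. Within sexes the OIR difference was -0.21 between 1 female and 1 female and -0.85 between 2 males and 2 males. Nr1d2 was between 6.92 and 7.24 in control, 6.96 and 7.11 in OIR, and 6.88 and 7.15 in treated OIR mice, with a difference of -0.06 (95% CI -0.32 to 0.19) between OIR and control.

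Nr1d1 overlaps Thra, which encodes thyroid hormone receptor alpha, tail to tail on opposite strands, and whether the counting used strand is not given in the sources used here. Of the 3077 exonic bases of Nr1d1, 263 are shared with exons of Thra. Thra had a similar pattern, at 8.34, 8.63, and 8.75 log2 CPM in control mice, 7.98, 7.79, and 7.62 in OIR mice, and 7.59, 8.17, and 8.31 in treated OIR mice. Reads from the shared bases cannot be assigned to either gene without strand. Thra differed from control by -0.78 in OIR mice (edgeR adjusted p = 0.0774) and -0.53 in treated OIR mice (edgeR adjusted p = 0.22), and the latter was -0.33 without treated OIR mouse 2.

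Dbp (ENSMUSG00000059824; GRCm38 chromosome 7, 45705088 to 45710203), the output factor of the loop, had the largest difference of the 10 genes. Its level was 7.54, 7.77, and 7.87 log2 CPM in control mice. It was 7.19, 6.95, and 7.05 in OIR mice and 6.70, 7.16, and 7.15 in treated OIR mice. No OIR or treated OIR mouse reached the lowest control mouse, and treated OIR mouse 2, the mouse with lens counts, was the lowest of all. The difference from control was -0.67 (SE 0.146, 95% CI -0.998 to -0.34; edgeR unadjusted p = 0.00133, adjusted p = 0.0612) in OIR mice, or 63.0% of the control level. In treated OIR mice it was -0.71 (SE 0.147, 95% CI -1.04 to -0.38; edgeR unadjusted p = 0.000881, adjusted p = 0.102), or 61.1%, and without treated OIR mouse 2 it was -0.57 (edgeR adjusted p = 0.146). Within sexes, the differences in OIR mice were -0.35 between 1 female and 1 female and -0.82 between 2 males and 2 males. Those in treated OIR mice were -0.60 between 2 females and 1 female and -0.67 between 1 male and 2 males. Dbp shares 539 of its 2993 exonic bases with Sphk2 on the other strand, and Sphk2 differed from control by 0.01 in OIR mice (edgeR adjusted p = 0.97), with 414 to 733 counts per mouse.

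The calls for Dbp, Nr1d1, and Arntl depended on the fit. Without treated OIR mouse 2, all 3 passed in OIR against control, with edgeR adjusted p = 0.00702 for Dbp, 0.0111 for Nr1d1, and 0.0382 for Arntl, and 12.5% of all genes passed too. Both Dbp and Nr1d1 passed with no filter (1.75% of all genes passed), with at least 10 counts in every mouse (2.55%), with edgeR on the 2 groups alone (10.3%), and with DESeq2 on the 2 groups (8.77%), and Dbp alone passed with lens level as a covariate (2.85%). All 3 genes passed in DESeq2 on all 9 mice (5.87%) and in limma-voom (13.1%). For treated OIR against control, 1 of 10 passed in DESeq2 on the 2 groups (0.96% of all genes), 2 in DESeq2 on all 9 mice (2.23%), and 3 in limma-voom (5.28%). A contrast chosen after seeing the data, both OIR groups together against control, was also run in the fit of all 9 mice, and 3.19% of genes passed. In it Dbp fell to 62.0% of the control level (log2 difference -0.69, SE 0.124; edgeR adjusted p = 0.0365). Nr1d1 fell to 64.9% (-0.62, SE 0.12; edgeR adjusted p = 0.0395). Arntl rose to 124% (0.31, SE 0.0635; edgeR adjusted p = 0.0425). Against control, the direction of each of these 3 genes was the same in all 19 alternative settings for both OIR groups.

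**Figure D2:**
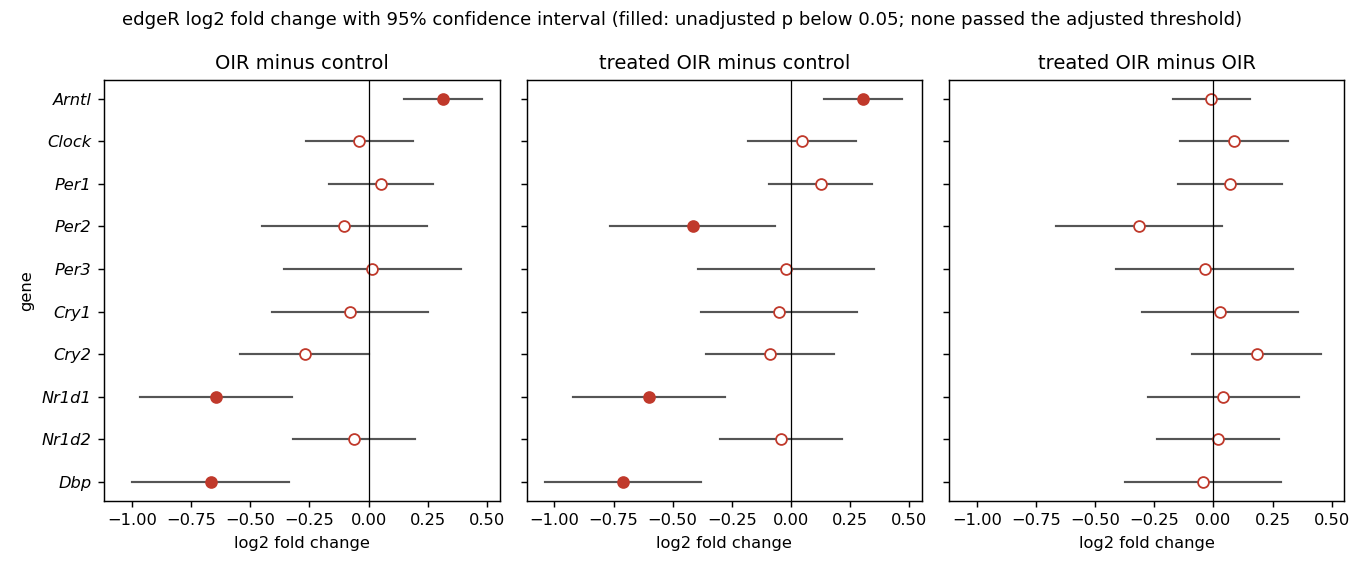
Log2 fold change (x axis) of each clock gene in the 3 comparisons, from edgeR on all 9 mice, with 95% confidence intervals as lines and filled points for an unadjusted p below 0.05. Dbp and Nr1d1 lie near -0.6 to -0.7 and Arntl near 0.3 against control in both OIR groups, and in treated OIR against OIR every interval includes 0.

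In treated OIR against control, 0 of 10 clock genes passed the adjusted threshold, as did 0.0228% of all genes. At an unadjusted p below 0.05, 4 of 10 passed (Dbp, Nr1d1, and Per2 lower, Arntl higher) against 18.6% of all genes, and the same 4 did not overlap with control, against 25% of all genes. Without treated OIR mouse 2, 3 of 10 had an unadjusted p below 0.05 (Dbp, Nr1d1, and Arntl), against 6.98% lower and 7.23% higher of all genes. This comparison shares its control mice with the previous one, so their likeness is in part built in.

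The direct comparison of treated OIR with vehicle-injected OIR mice addresses whether clock gene levels differed with the HIF inhibitor. No clock gene passed the adjusted threshold in edgeR, and 0% of all genes did. At an unadjusted p below 0.05, 0 of 10 passed in edgeR against 4.69% of all genes, and DESeq2 and limma-voom also passed 0 of 10 at the adjusted threshold. Groups did not overlap for Per2 (lower) and Cry2 (higher), or 2 of 10 against 9.13% of all genes. Differences for the 3 genes that separated control from OIR were -0.04 (95% CI -0.37 to 0.29) for Dbp, 0.04 (95% CI -0.28 to 0.36) for Nr1d1, and -0.01 (95% CI -0.17 to 0.15) for Arntl. None of these 3 intervals includes the difference that would offset the estimate for OIR against control, which is 0.67 for Dbp, 0.64 for Nr1d1, and -0.31 for Arntl. That estimate comes from the same OIR mice and has its own interval, with an end nearest 0 of -0.34, -0.32, and 0.15. In this fit of all 9 mice, a difference that offsets this end lies within the interval for Nr1d1 and Arntl but not for Dbp. Treated OIR mouse 2, the mouse with lens counts, was the lowest of all for Dbp. Without it, treated OIR differed from OIR by 0.12 (SE 0.122) for Dbp, 0.16 (SE 0.140) for Nr1d1, and 0.0068 (SE 0.0866) for Arntl. The exception for Dbp is therefore given for the fit with that mouse only.

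The ratio of Dbp or Nr1d1 to Arntl within a mouse does not depend on library scaling, and it is given here as a description. Since all 6 OIR mice had lower Dbp and Nr1d1 and higher Arntl than control, that the ratios do not overlap with control follows from the values above. The log2 ratio of Dbp to Arntl was 1.37, 1.59, and 1.67 in control mice, 0.72, 0.49, and 0.49 in OIR mice, and 0.20, 0.66, and 0.70 in treated OIR mice. Group means were 1.54 ± 0.153 (SD, n = 3), 0.57 ± 0.132, and 0.52 ± 0.283. For the ratio of Nr1d1 to Arntl, control mice had a mean of 1.54 ± 0.211, OIR mice 0.59 ± 0.194, and treated OIR mice 0.64 ± 0.188.

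**Figure D3:**
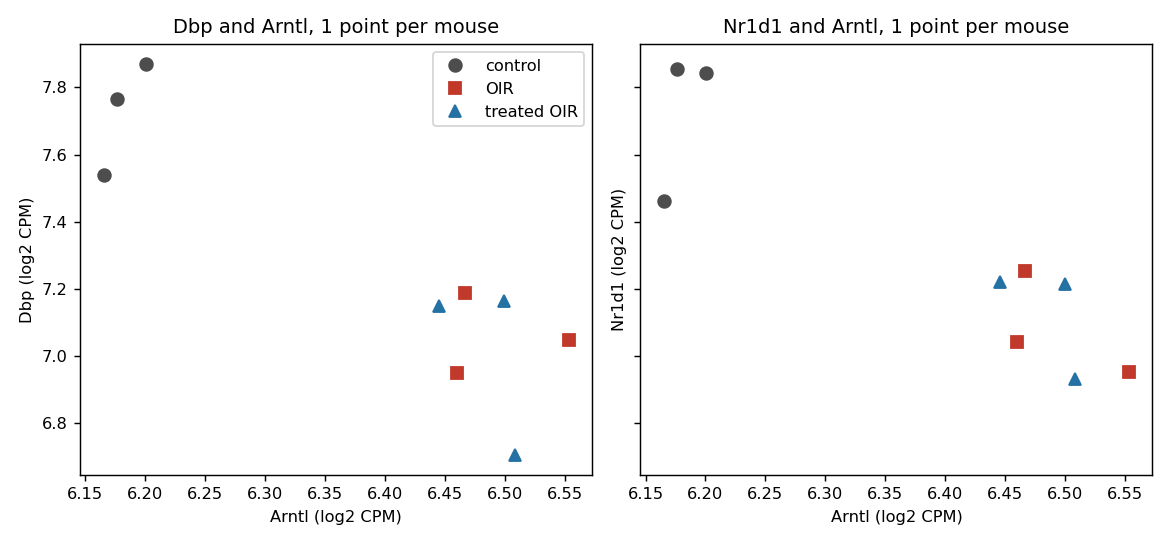
Dbp (left, y axis) and Nr1d1 (right, y axis) against Arntl (x axis), all in log2 CPM, with a point for each mouse, in control (gray circles), OIR (red squares), and treated OIR (blue triangles). The 3 control mice lie at upper left, with Arntl at 6.17 to 6.20, and the 6 OIR mice lie at lower right with both OIR groups intermixed.

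Other members of the loop with the same phase did not all follow. Per3 and Nr1d2, which in most tissues peak near Dbp and Nr1d1, overlapped between all groups. Among the PAR-bZIP relatives of Dbp, Hlf was 7.61, 8.15, and 8.05 log2 CPM in control mice, 7.25, 7.15, and 7.14 in OIR mice, and 6.70, 7.37, and 7.51 in treated OIR mice, without overlap between control and OIR. Hlf differed from control by -0.77 (edgeR unadjusted p = 0.00498, adjusted p = 0.0878) in OIR and -0.72 (edgeR unadjusted p = 0.00732, adjusted p = 0.164) in treated OIR mice, and the latter was -0.50 without treated OIR mouse 2. Tef, the third gene of that family, differed by -0.21 and -0.26, each with an unadjusted p above 0.05 (-0.23 and -0.14 without that mouse, with an unadjusted p of 0.0441 in OIR). Nfil3, which competes for the D-box, differed by -0.01 and 0.25, and the latter was -0.01 without that mouse.

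The spread of the clock genes among mice of a group bears on whether these mice were collected at like times. The pooled within-group SD of log2 CPM was 0.0375 for Arntl, and only 0.0627% of all genes tested had a smaller SD. It was 0.103 for Per1, 0.111 for Clock, 0.134 for Nr1d2, 0.146 for Cry2, 0.157 for Per2, 0.184 for Nr1d1, 0.192 for Dbp, 0.195 for Cry1, and 0.226 for Per3. The median over the 10 genes was 0.151, beside 0.265 over all genes tested and 0.164 over the 9141 genes with a mean of at least 4 log2 CPM. Without treated OIR mouse 2, the SD of Dbp was 0.131. The widest range within a group was 0.57 log2, for Per3 in treated OIR mice, and for Dbp the widest was 0.46, also in treated OIR mice. Clock genes therefore varied among mice of a group about as much as other genes of like level, and Arntl varied less. Whether the groups differed in collection time was not tested, since no label gives it.

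**Figure D4:**
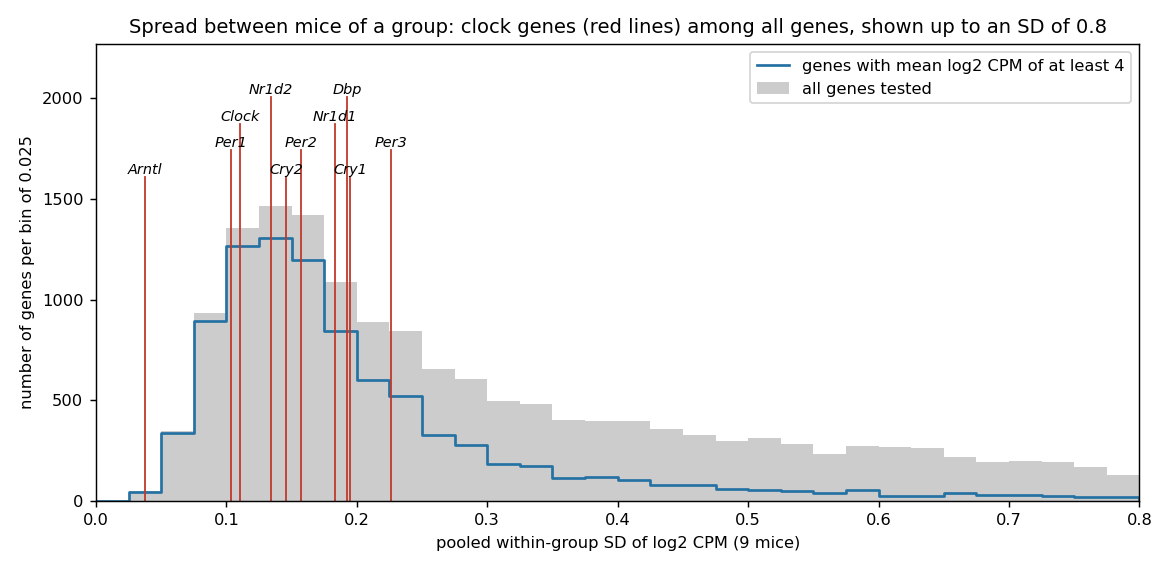
Number of genes (y axis) by pooled within-group SD of log2 CPM over 9 mice (x axis), for all genes tested (gray bars) and genes with a mean of at least 4 log2 CPM (blue line), with red lines at the clock genes. Arntl lies at 0.0375 at the far left, and the other 9 lie between 0.103 and 0.226.

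Levels were compared between genes per length, as log2 RPKM, in which counts are divided by library size and gene length. In control mice the order was Dbp (6.14 ± 0.169, SD, n = 3), Nr1d1 (6.10 ± 0.224), Nr1d2 (4.66 ± 0.161), Cry2 (4.61 ± 0.217), Cry1 (4.13 ± 0.265), Per1 (4.10 ± 0.0831), Arntl (3.27 ± 0.018), Clock (2.81 ± 0.141), Per3 (2.44 ± 0.198), and Per2 (1.56 ± 0.225). The neighbors Dbp and Nr1d1, Nr1d2 and Cry2, and Cry1 and Per1 overlapped among control mice, and the other neighbors did not. In OIR mice the order differed from control only in Per1 and Cry1, which overlapped in both groups. In treated OIR mice Nr1d1 and Dbp also exchanged places, and these overlapped as well.

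The 14 bHLH-PAS relatives of ARNTL and CLOCK include the HIF subunits themselves, and 12 were tested (Sim1 and Sim2 had too few counts). In OIR against control, 6 of 12 were higher and 0 lower at an unadjusted p below 0.05, against 11.1% and 12.7% of all genes, with a median log2 difference of 0.23 beside 0.03 over all genes, and 0 passed the adjusted threshold. Arnt, the common partner of the HIFs, was 5.48, 5.60, and 5.41 log2 CPM in control mice, 5.77, 6.03, and 5.96 in OIR mice, and 6.09, 5.63, and 5.80 in treated OIR mice. All OIR mice were above all control mice. Arnt differed from control by 0.43 (edgeR unadjusted p = 0.00936, adjusted p = 0.106) in OIR and 0.36 (edgeR unadjusted p = 0.0225, adjusted p = 0.213) in treated OIR mice. Epas1, which encodes HIF-2α, differed by 0.25 (edgeR unadjusted p = 0.0431) and Hif3a by 0.68 (edgeR unadjusted p = 0.0275) in OIR mice. Ahr, the dioxin receptor, differed by 1.05, Ahrr, its repressor, by 1.03, and Npas3 by 0.94. Hif1a differed by 0.11 (edgeR unadjusted p = 0.371) and 0.08 in the 2 groups, Arnt2 by -0.18 and 0.04, Npas2, which can replace CLOCK, by 0.07 and 0.05, and Arntl2, the paralog of Arntl, by 0.17 and 0.28. Between treated OIR and control, 2 of 12 were higher (Arnt and Ahr, by 0.36 and 0.98) and 0 lower, against 10% and 8.6% of all genes. Without treated OIR mouse 2, Arnt differed by 0.23 (edgeR unadjusted p = 0.0729) and Ahr by 0.34 (edgeR unadjusted p = 0.0628), and 1 of 12 was higher (Epas1, by 0.29) against 7.23% of all genes. Between treated OIR and OIR, 0 of 12 differed in either direction, against 2.39% higher and 2.3% lower of all genes, with a median of -0.07 beside 0.01. That count was 3 lower (Ahr, Ahrr, and Npas3) and 1 higher (Arnt2) without treated OIR mouse 2, against 4.69% and 8.35% of all genes.

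Of the 11 genes of the secondary loop and outputs, 2 were lower (Hlf and Ciart) in OIR against control at an unadjusted p below 0.05, against 12.7% of all genes, and 0 passed the adjusted threshold. The activators of Arntl at the ROR element, Rora and Rorb, differed by 0.15 and 0.10 in OIR mice. Bhlhe40 (DEC1), an E-box repressor and a known HIF target, differed by 0.34 (edgeR unadjusted p = 0.129) in OIR and 0.48 (edgeR unadjusted p = 0.0432) in treated OIR mice, and Bhlhe41 by 0.01 and 0.02. Relative to control, treated OIR mice had 1 lower gene (Hlf) and 2 higher (Rora and Bhlhe40), against 8.6% and 10% of all genes. When treated OIR mouse 2 was left out, Bhlhe40 differed by 0.32 in OIR (edgeR unadjusted p = 0.0241) and by 0.19 in treated OIR mice (edgeR unadjusted p = 0.186), and Rora was the 1 higher gene of this list in treated OIR mice.

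In treated OIR against OIR, Ciart and Noct were higher without overlap, and 1 other of the 49 tested genes of the 6 lists was lower. Groups did not overlap for 9.13% of all genes in that comparison. Ciart (CHRONO), a repressor of ARNTL and CLOCK whose promoter holds the 3 E-boxes shown above, was 3.97, 3.66, and 3.80 log2 CPM in control mice, 3.40, 3.16, and 2.99 in OIR mice, and 3.94, 3.83, and 3.68 in treated OIR mice. Noct (nocturnin), an enzyme with a daily rhythm in photoreceptors, was 5.31, 5.31, and 5.39 in control mice, 4.97, 5.01, and 4.76 in OIR mice, and 5.30, 5.29, and 5.30 in treated OIR mice. For both genes, OIR mice lay below all other mice, and treated OIR mice lay within or, for Noct, just below the range of the control mice. The comparisons of OIR with control and of treated OIR with OIR share the OIR mice, so their opposite directions are in part built in. Ciart differed from control by -0.63 (edgeR unadjusted p = 0.00397, adjusted p = 0.0817) in OIR mice, by 0.0020 in treated OIR mice, and by 0.64 (95% CI 0.26 to 1.01; edgeR unadjusted p = 0.00394, adjusted p = 0.984) between treated OIR and OIR. Noct differed by -0.42 (edgeR unadjusted p = 0.00197, adjusted p = 0.0656), -0.04, and 0.38 (95% CI 0.16 to 0.60; edgeR unadjusted p = 0.00352, adjusted p = 0.984). These were the only 2 of 49 tested genes of the 6 lists with an unadjusted p below 0.05 in the direct comparison, against 4.69% of all genes, and neither passed the adjusted threshold of that comparison in any of the 19 settings. When treated OIR mouse 2 was left out, 5 of the 49 were lower and 6 higher at an unadjusted p below 0.05, against 4.69% and 8.35% of all genes, and Ciart (0.60) and Noct (0.41) were among them.

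Of the 9 clock kinases, ubiquitin ligases, and associated proteins, Timeless (-0.66, edgeR unadjusted p = 0.00984) and Csnk1e (-0.35, edgeR unadjusted p = 0.0325), which encodes a kinase of PER proteins, were lower in OIR mice, or 2 of 9 against 12.7% of all genes. Treated OIR mice also had lower Timeless than control (-0.47), and higher Csnk1a1 (0.29), at an unadjusted p below 0.05, or 1 of 9 in each direction against 8.6% and 10% of all genes. With treated OIR mouse 2 left out, Timeless differed by -0.55 and Csnk1a1 by 0.23 (edgeR unadjusted p = 0.0648). Among 5 genes with a daily rhythm in retina or pineal gland, 1 was lower in OIR against control (Noct), against 12.7% of all genes. Without treated OIR mouse 2, 2 of 5 were lower (Noct and Opn4) and 1 higher (Adcy1), against 16.5% and 12.2% of all genes. Drd4, the dopamine receptor of photoreceptors, was higher in treated OIR mice (0.43 against control, edgeR unadjusted p = 0.0488), or 1 of 5 against 10% of all genes, and the difference was 0.32 (edgeR unadjusted p = 0.129) without treated OIR mouse 2.

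Per1 shares inputs with genes induced by cAMP and neuronal activity and with genes induced by glucocorticoids. Of 7 activity-inducible genes, 4 were higher in OIR against control at an unadjusted p below 0.05 (Fos, Fosb, Junb, and Egr1), against 11.1% of all genes, with a median log2 difference of 0.80, while Per1 itself differed by 0.05. Fos was 4.75, 4.78, and 4.91 log2 CPM in control mice, 5.47, 5.33, and 5.95 in OIR mice, and 5.74, 5.66, and 5.68 in treated OIR mice. All OIR mice exceeded all control mice, with a difference of 0.80 (edgeR unadjusted p = 0.000529, adjusted p = 0.0528) in OIR and 0.88 (edgeR unadjusted p = 0.000268, adjusted p = 0.102) in treated OIR mice. Between treated OIR and control, 4 of 7 were higher (Fos, Junb, Nr4a1, and Sik1), against 10% of all genes. With treated OIR mouse 2 left out, 3 were higher (Fos, Egr1, and Sik1) against 7.23% of all genes, and Fos differed by 0.87. Junb went from 1.04 to 0.29 (edgeR unadjusted p = 0.356) and Nr4a1 from 0.72 to 0.31 (edgeR unadjusted p = 0.0638) when that mouse was left out. Of 5 glucocorticoid-inducible genes, 0 passed an unadjusted p of 0.05 in any comparison. With that mouse left out, 1 of these 5 was lower in OIR against control at an unadjusted p below 0.05, against 16.5% of all genes. This was Tsc22d3 (-0.56, edgeR adjusted p = 0.0148), and 12.5% of all genes passed the adjusted threshold too. Its difference between treated OIR and OIR was then 0.40 (edgeR unadjusted p = 0.0116), or 1 of 5 higher against 8.35% of all genes. Klf9 differed by 0.53 between treated OIR and control (edgeR unadjusted p = 0.0234), or 1 of 5 higher against 7.23%.

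**Figure D5:**
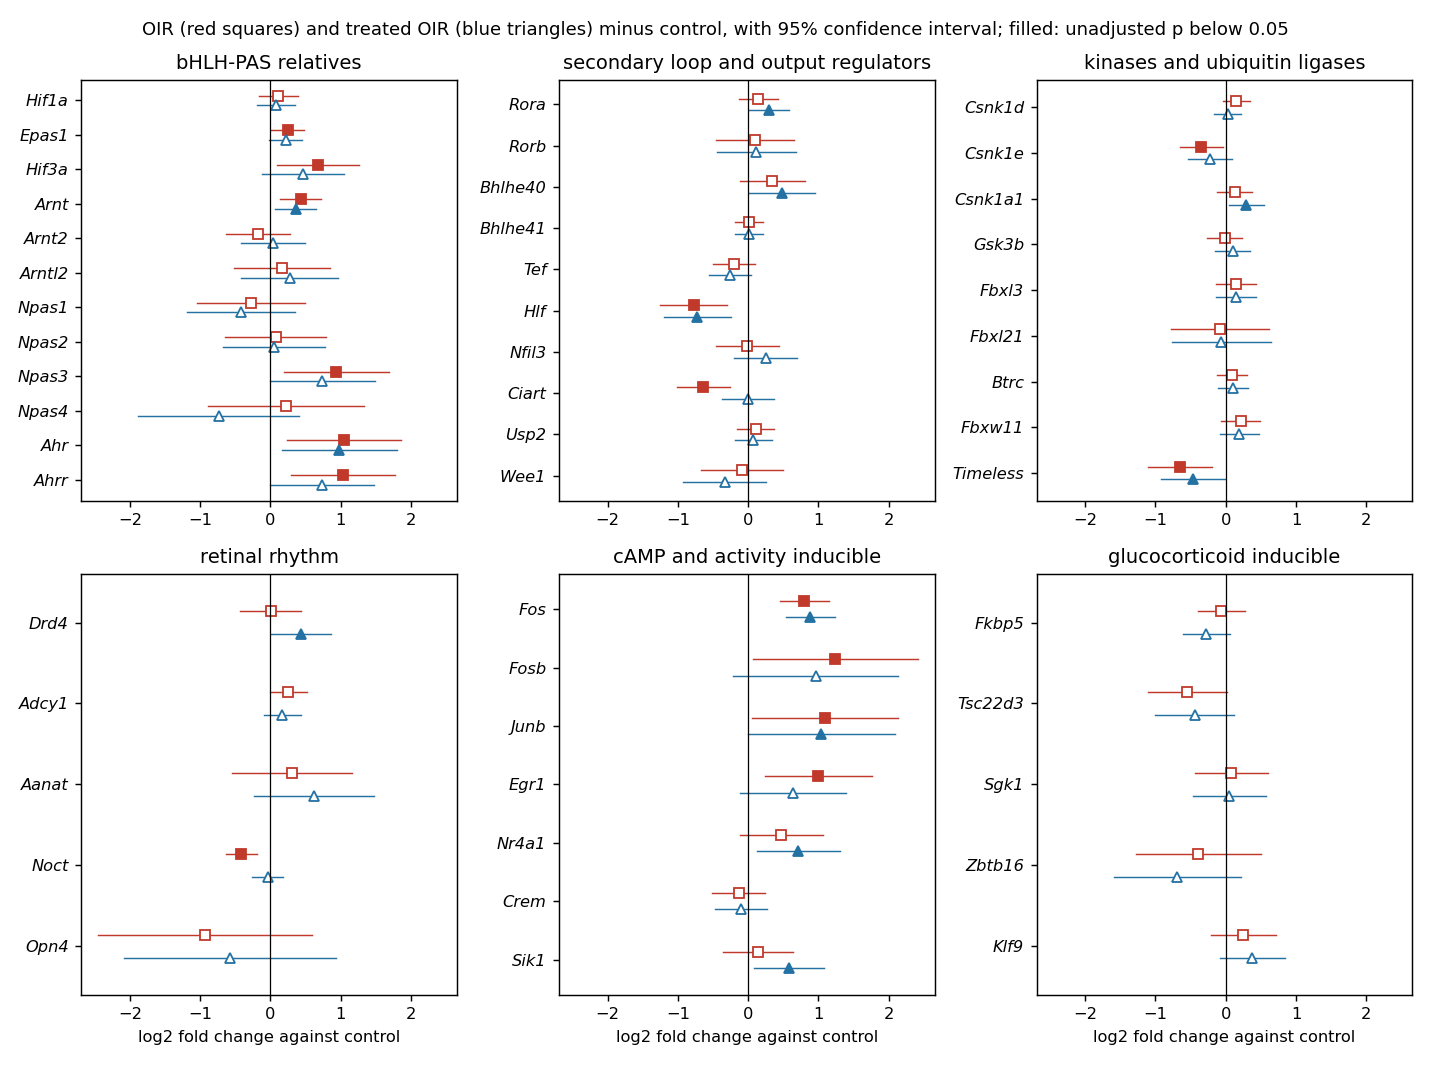
Log2 fold change against control (x axis) of tested genes of 6 lists related to the clock, in OIR (red squares) and treated OIR (blue triangles) mice, with 95% confidence intervals as lines and filled symbols for an unadjusted p below 0.05. Hlf lies near -0.7 in both groups, Arnt near 0.4, and Fos near 0.8, whereas Ciart and Noct lie below 0 in OIR mice and at 0 in treated OIR mice.

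Over all 6 lists, 5 of 49 tested genes were lower and 11 higher in OIR against control at an unadjusted p below 0.05, against 12.7% and 11.1% of all genes. Without treated OIR mouse 2, which enters the shared estimate of spread, these counts were 8 and 14, against 16.5% and 12.2%. Between treated OIR and control, 2 were lower and 10 higher, against 8.6% and 10%, and without treated OIR mouse 2 these counts were 2 and 6, against 6.98% and 7.23%. While 0 passed the adjusted threshold in edgeR in any comparison, DESeq2 on all 9 mice called 8 in OIR against control (Ciart, Hlf, Noct, and Timeless fell, and Ahr, Ahrr, Egr1, and Fos rose) beside 5.87% of all genes, and limma-voom called 11 beside 13.1%. Each tool called Hlf and Fos in treated OIR against control, beside 2.23% of all genes in DESeq2 and 5.28% in limma-voom, and 0 in treated OIR against OIR. In these bulk samples, fewer cells of a type and less RNA per cell cannot be told apart. Several marker lists moved with the groups. All 4 amacrine markers were lower in OIR against control at an unadjusted p below 0.05, and control mice had a summed level of 397 to 508 CPM, OIR mice of 95.7 to 192, and treated OIR mice of 72.6 to 348. Of 4 ganglion cell markers, 2 were lower, and control mice had a sum of 939 to 1197 CPM, OIR mice of 82.6 to 404, and treated OIR mice of 29.4 to 758. Of 4 bipolar cell markers, 3 were higher in OIR against control, and control mice had a sum of 898 to 1003 CPM, OIR mice of 1152 to 1291, and treated OIR mice of 837 to 995. All 3 erythroid markers were lower, and control mice had a sum of 69.9 to 123 CPM, OIR mice of 9.21 to 56.9, and treated OIR mice of 52.8 to 134. Treated OIR mouse 2, the mouse with lens counts, had the lowest treated OIR sum for amacrine, ganglion, and bipolar markers. It had the highest for erythroid markers. The sums are scaled to total counts, which include the lens counts. The other lists had at most 1 marker that differed between OIR and control. Each marker of these 4 lists had counts in at least 1 mouse. Their part in the values of Dbp, Nr1d1, and Hlf was not tested.

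The genes whose level most resembled that of Dbp and Arntl over the 9 mice were sought among 13978 genes with a mean of at least 1 log2 CPM, by Pearson's r, which here includes the difference between groups. For Dbp they were Eef1a2 (r = 0.987), a translation elongation factor of neurons and muscle, Klhdc8a (0.986), Bcl2l1 (0.986), which encodes the survival protein BCL-XL, Phyhipl (0.981), and Ppa1 (0.981). For Arntl they were Foxo1 (0.983), a forkhead factor of insulin signaling, Ythdf3 (0.979), a reader of methylated RNA, Bmpr1b (0.974), and Zfp800 (0.973). None of these genes belongs to the clock lists used here.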

How the data were processed

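Retinal RNA was sequenced in 9 mice, 3 per group, which were grouped by their labels. The authors deposited a table of raw counts, not normalized, with a row per gene. The submitters' processing notes name CASAVA and HISAT without versions, and the counting tool, strand setting, and genome build are not given in the sources used here. In GENCODE M21 (GRCm38), 54495 of the identifiers were found and 98.3% of these had an identical position, including all 10 clock genes, and coordinates are therefore given on GRCm38. No library was a copy of another.

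Counts were analysed with edgeR 4.0.16 (R 4.3.3), with TMM factors, the default filter by group, and 1 mean per group over all 9 mice in the quasi-likelihood fit, which was tested on simulated data. P-values were adjusted over all 17540 genes, and genes with an adjusted p below 0.05 were called. Log2 CPM used a prior count of 2, and RPKM used the deposited gene length. Alternatives included DESeq2 1.42.0, limma 3.58.1, other scaling and filters, sex or lens level as a covariate, and leaving out each mouse. All members were named, with 14 pathway genes named in any case, other list genes by an unadjusted p below 0.05 in a comparison, and the 5 genes most like Dbp and Arntl. Thra and Sphk2, which overlap members, were named after their values were seen. Of the genes these rules name, 2 are not reported here. The members and lists were chosen with earlier results of these data known. Promoter sequences are from RefSeq. Python 3.11.15 with pandas 2.3.3 and matplotlib 3.10.9 was used for tables and plots.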

Additional observations from a re-analysis of the deposited data

How the results depend on the processing

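Precision rests on 3 mice per group, and an exact permutation test of 3 against 3 cannot go below 0.1. No paired analysis was possible because groups share at most 1 replicate number (6 for control and OIR, 5 for OIR and treated OIR). The count of clock genes called in OIR against control, 0 in the reported fit, was 2 with no filter, 2 with at least 10 counts in every mouse, 1 with lens level as a covariate (Dbp), 2 with edgeR on the 2 groups, 2 with DESeq2 on the 2 groups, 3 with DESeq2 on all 9 mice, 3 with limma-voom, and 3 in the added contrast of both OIR groups together, and it ranged from 0 to 3 when each mouse was left out, with 3 reached only without treated OIR mouse 2. In treated OIR against control it was 1 with DESeq2 on the 2 groups (Dbp), 2 with DESeq2 on all 9 mice, and 3 with limma-voom. It was 0 in every setting for treated OIR against OIR. Over 19 settings, the adjusted p for OIR against control ranged from 9.36e-05 to 0.204 for Dbp (8 settings passed), 0.000671 to 0.214 for Nr1d1 (7), and 0.0226 to 0.223 for Arntl (3), with fold changes of -0.76 to -0.59, -0.76 to -0.57, and 0.28 to 0.38. In treated OIR against control it passed in 3, 2, and 1 settings.

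Every fold change whose direction turned had a 95% interval that included 0 in the reported fit. In OIR against control these were Per3 (-0.00910 with edgeR on the 2 groups, -0.0105 with limma-voom), Clock (0.0249) and Nr1d2 (0.00310) with total counts alone, Npas2 (-0.0710 with limma-voom), Bhlhe41 (-0.00734 with lens level as a covariate, -0.00739 with edgeR on the 2 groups), and Nfil3 (0.00704 with upper-quartile factors, 0.0574 with total counts alone, 0.00257 with no filter). For treated OIR against control they were Per3 (0.0119 with sex and 0.0950 with lens level as a covariate, 0.00387 with limma-voom), Cry1 (0.0145) and Nr1d2 (0.0308) with lens level, Clock (-0.0426 with limma-voom), and Ciart (-0.00503 with upper-quartile factors, -0.0401 with total counts alone, -0.00369 with at least 10 counts in every mouse, -0.0797 with sex, -0.102 with lens level, and -0.0104 and -0.0117 with DESeq2 on the 2 groups and on all 9 mice). For treated OIR against OIR they were, with total counts alone, Per1 (-0.0170), Cry1 (-0.0563), Clock (-0.00425), Nr1d1 (-0.0392), and Nr1d2 (-0.0636), Per3 (0.00616 with sex, 0.0219 with lens level, 0.0144 with limma-voom), and Dbp (0.0206 with lens level, 0.0694 with limma-voom). The cause was not tested.

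Leaving out each mouse also turned some of these. In OIR against control the ranges were Clock -0.101 to 0.0409, Cry1 -0.216 to 0.0231, Nr1d2 -0.145 to 0.0146, Per2 -0.183 to 0.0361, Per3 -0.0892 to 0.0934, Arntl2 -0.0475 to 0.318, Bhlhe41 -0.0109 to 0.0407, Nfil3 -0.102 to 0.0540, Npas2 -0.263 to 0.321, and Rorb -0.00459 to 0.273. For treated OIR against control they were Clock -0.0153 to 0.126, Cry1 -0.189 to 0.0499, Nr1d2 -0.125 to 0.0463, Per3 -0.172 to 0.116, and Ciart -0.0697 to 0.0832. For treated OIR against OIR they were Arntl -0.0264 to 0.0210, Cry1 -0.0376 to 0.130, Dbp -0.122 to 0.119, Nr1d1 -0.0220 to 0.158, Nr1d2 -0.0293 to 0.128, and Per3 -0.189 to 0.125. The planned correlation of Arntl with the other members over all 9 mice, with its alternatives, is not given because Arntl falls into separate ranges in control and OIR mice.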

Other observations

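Within the 6 OIR mice, which span both OIR groups, Arntl was negatively related to each of the 9 other clock genes, with Pearson's r from -0.10 (Clock) to -0.71 (Per1). For Per1, Spearman's rho was -0.49, the two-sided exact permutation p was 0.104 for r and 0.356 for rho, and the Benjamini-Hochberg adjusted p over 9 relations was 0.535. Without the 2 mice farthest from the median of Arntl, r for Per1 was -0.15, and r for Per2 went from -0.27 to -0.97. Arntl spanned only 6.45 to 6.55 log2 CPM in the 6 mice, and leaving out its extremes narrows this further. This step therefore cannot show what a relation rests on. For Nr1d1, r was -0.65 and rho -0.66 (exact permutation p = 0.138 and 0.175, adjusted p for r = 0.535), and r was -0.34 without the 2 farthest mice. For Dbp, r was -0.28 and rho -0.26 (exact permutation p = 0.568 and 0.658, adjusted p for r = 0.688). Without the 2 farthest mice the sign turned for Cry2 (r from -0.55 to 0.79) and Clock (-0.10 to 0.58). No relation passed the adjusted threshold, and libraries share the scaling to CPM.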
